A study of Rattus norvegicus with 7 samples.

Results

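Peaks of the sterol regulatory element binding protein SREBP1 in rat sciatic nerve were set against peaks of the zinc finger protein YY1 in S16, an immortalised rat Schwann cell line. All peaks of both lists were taken except those on the mitochondrial genome: 29435 SREBP1 peaks and 38704 YY1 peaks, together 68139 of the 283853 regions in the 6 peak lists of the series. SREBP1 was mapped by ChIP-seq in wild type nerve at postnatal day 15. YY1 was mapped in untreated S16 by CUT&RUN, in which an antibody carries micrococcal nuclease to the bound protein so that the enzyme releases the DNA around it. CUT&RUN lists of TEAD1, NR2F2 and RXRG and a ChIP-seq list of histone H3 acetylated at lysine 27 (H3K27ac), all from untreated S16, served as context. Each target had 1 library. No replicate error and no test of a difference could therefore be had, and the values describe these lists. Intervals are 95% Wilson intervals over peaks, or Newcombe intervals for a difference. They treat peaks as independent, which neighbouring peaks are not, and cover neither cultures, animals nor calling.

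SREBP1 is made as a precursor in the membrane of the endoplasmic reticulum. When sterols are low it is carried to the Golgi and cut, and the freed part enters the nucleus and binds sterol regulatory elements and E-boxes of genes for fatty acid and sterol synthesis. Myelinating Schwann cells make large amounts of membrane lipid, and myelination of the rat nerve is under way in the first postnatal weeks. YY1 can activate or repress, sits at many active promoters and enhancers, and is needed for peripheral myelination. TEAD1 is a DNA-binding partner of YAP and TAZ, NR2F2 is an orphan nuclear receptor, RXRG is a retinoid X receptor, and H3K27ac marks active promoters and enhancers.

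Nerve and cell line, ChIP-seq and CUT&RUN, and the proteins themselves differ at once between these lists, and their parts in any difference cannot be told apart. Sciatic nerve holds fibroblasts, endothelial cells, perineurial cells and macrophages beside Schwann cells, and peak lists hold no expression by which the labelled cell type could be checked. Every SREBP1 peak is 485 bp wide, whereas YY1 peaks run from 178 to 3052 bp with a median of 439 bp. Reads behind a peak are not given in the lists, so depth is unknown. Peaks are named by position on rn5, counting from 1, since the gene and promoter tables at hand are of another build.

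A large minority of nerve SREBP1 sites lay on YY1 sites of the cell line. With an overlap of at least 1 bp, 11359 of 29435 SREBP1 peaks met YY1, or 38.6% (38.0 to 39.1%). In the other direction 11414 of 38704 YY1 peaks met SREBP1, or 29.5% (29.0 to 29.9%). Such peaks are called shared, and the 18076 SREBP1 peaks and 27290 YY1 peaks without a partner are called SREBP1-only and YY1-only. The match was nearly one to one: 11259 SREBP1 peaks met exactly 1 YY1 peak and 100 met 2, while 45 YY1 peaks met 2 SREBP1 peaks and none met more. The widest of these 45 was at chr12:1488577-1490625 (2049 bp), where the SREBP1 peaks carry the name numbers 57 and 41.

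The overlap was long in most of the 11459 pairs. Its median was 305 bp, with quartiles of 184.5 and 458 bp. In 20.8% of pairs the whole SREBP1 peak lay inside the YY1 peak, in 6.34% the whole YY1 peak lay inside the SREBP1 peak, and 5.73% overlapped by less than 50 bp. By length, 3.46 Mb were common, which is 24.2% of the SREBP1 sequence and 17.6% of the YY1 sequence. The SREBP1 midpoint lay inside the YY1 peak in 64.8% of pairs.

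What counts as shared sets these shares. Counting only peaks whose midpoints lay within 200 bp of each other left 18.1% of SREBP1 peaks and 13.8% of YY1 peaks.

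SREBP1-only peaks were for the most part far from YY1. Their median distance to the nearest YY1 edge was 15.4 kb, 11.3% had one within 500 bp and 24.9% within 5 kb. YY1-only peaks lay at a median of 15.7 kb from SREBP1, and 8.69% had an SREBP1 edge within 500 bp. Just missed pairs are thus a small part of either list-only class.

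Shared and list-only peaks differed in their S16 context, and much more so from the SREBP1 side than from the YY1 side. Of all SREBP1 peaks 51.3% lay in H3K27ac of S16 and 22.2% met TEAD1. Among shared SREBP1 peaks the shares were 93.2% (92.8 to 93.7%) and 51.8% (50.9 to 52.7%), and among SREBP1-only peaks 25.0% (24.3 to 25.6%) and 3.68% (3.42 to 3.97%). The differences were 68.3 points for H3K27ac and 48.1 points for TEAD1. YY1 peaks as a whole were mostly acetylated, with 86.4% of them in H3K27ac and 48.6% meeting TEAD1. A shared SREBP1 peak lies on a YY1 peak by definition. Its context, and with it the differences on the SREBP1 side, thus follows in part from that of the YY1 list. From the YY1 side, 95.5% of shared and 82.6% of YY1-only peaks lay in H3K27ac, and 59.4% and 44.1% met TEAD1.

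**Figure D1:**
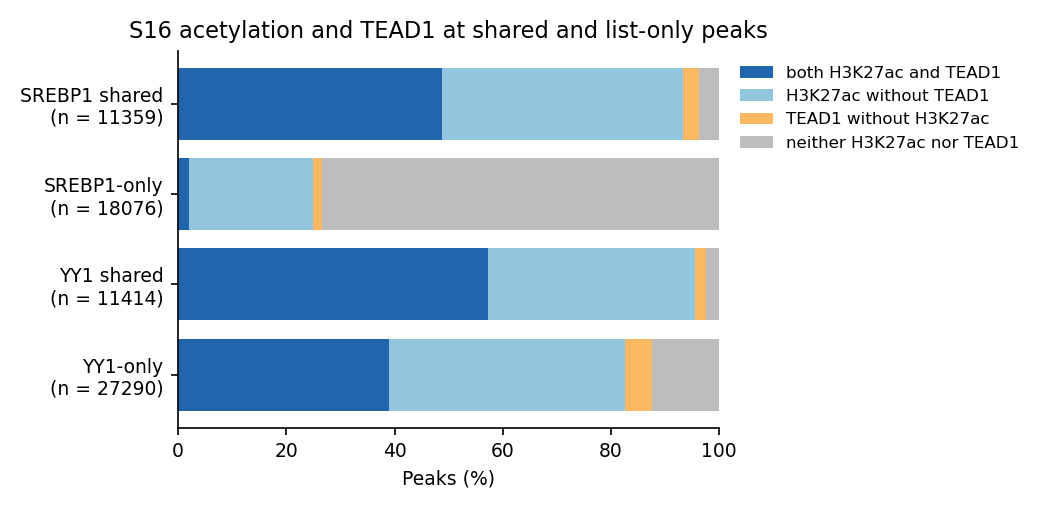
Share of peaks (x axis, %) by S16 context for shared and list-only peaks of each list, with H3K27ac and TEAD1 counted by overlap of at least 1 bp. Neither mark was present at 73.3% of SREBP1-only peaks, against 3.75% of shared SREBP1 peaks and 12.3% of YY1-only peaks.

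The nuclear receptors showed the same division on the SREBP1 side, where shared peaks again lie on YY1 peaks by definition. NR2F2 was met by 16% of all SREBP1 peaks, 39.5% of shared and 1.24% of SREBP1-only ones. RXRG was met by 9.04%, 20.9% and 1.62%. Of TEAD1, NR2F2 and RXRG, at least 1 was present at all but 30.9% of shared SREBP1 peaks, and all 3 were present at 1132 (9.97%). Among SREBP1-only peaks 93.9% met none of them and 6 (0.0332%) met all 3. On the YY1 side the contrast was smaller. None of these factors was present at 21.8% of shared and 35.2% of YY1-only peaks, and all 3 at 19.9% and 11.2%. NR2F2 was met by 38.7% of all YY1 peaks, 49.2% of shared and 34.3% of YY1-only ones, and RXRG by 29.3%, 35.4% and 26.7%. Outside H3K27ac the order was the reverse: NR2F2 was met by 8.56% of 514 shared and 14.2% of 4745 YY1-only peaks, and RXRG by 2.92% and 6.87%. TEAD1 was met there by 45.5% and 29.0%, the same order as over all YY1 peaks.

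Turned around, the share of SREBP1 peaks that met YY1 was highest with both marks, intermediate with either alone and lowest with neither. YY1 was met by 93.9% (93.3 to 94.5%) of the 5898 SREBP1 peaks with both H3K27ac and TEAD1. It was met by 54.9% (53.9 to 55.9%) of the 9205 with H3K27ac alone of these, by 52.8% (48.9 to 56.6%) of the 650 with TEAD1 alone, and by 3.11% (2.84 to 3.42%) of the 13682 with neither. Within H3K27ac, 96.6% of the SREBP1 peaks with NR2F2 and 93.5% of those with RXRG met YY1, against 58.7% and 65.5% of those without. The S16 lists also overlap one another apart from SREBP1. Of all YY1 peaks 86.4% lay in H3K27ac, and 48.6% met TEAD1, 38.7% NR2F2 and 29.3% RXRG. The shares with YY1 thus follow in part from that overlap. How many of all TEAD1, NR2F2 or RXRG peaks met YY1 is not given here. For YY1 peaks the range was narrower: SREBP1 was met by 38.1% of those with H3K27ac and TEAD1, 26.8% with H3K27ac alone, 14.5% with TEAD1 alone and 7.67% with neither. No class of YY1 peaks by these marks came near the highest shares on the SREBP1 side.

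SREBP1 and YY1 inside the same acetylated region usually overlapped each other. Of the 99514 H3K27ac peaks, 14916 held SREBP1, 30711 held YY1 and 11730 held both. Of those with both, 89.2% held an SREBP1 peak that overlapped a YY1 peak. At shared peaks in H3K27ac, SREBP1 peaks of 485 bp and YY1 peaks with a median of 651 bp filled much of the acetylated peak. An overlap of 1 bp is then likely wherever both are present, so 89.2% does not by itself show close placement. Of the 4513 SREBP1-only peaks in H3K27ac, 30.3% lay in an acetylated peak that held YY1 elsewhere, and 27.1% had a YY1 edge within 500 bp. Shared sites also sat deeper in the acetylated peak. With the distance from its midpoint to its edge taken as 1, shared SREBP1 midpoints lay at a median of 0.489 and SREBP1-only midpoints at 0.716, and 14.7% and 32.7% fell beyond the edge. Shared peaks lie on YY1 peaks by definition, so their position follows in part from where YY1 lay in the acetylated peak. The acetylated peaks were of similar width, with medians of 1265 and 1142 bp.

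Sharing outside H3K27ac was rare and close to acetylated chromatin. Of 14332 SREBP1 peaks outside H3K27ac, 769 met YY1, or 5.37%. These lay at a median of 0.265 kb from the nearest H3K27ac edge, and 67.5% had one within 1 kb. SREBP1-only peaks outside H3K27ac lay at a median of 5.58 kb, with 23.5% within 1 kb. Since shared peaks lie on YY1 peaks, of which 86.4% lay in H3K27ac, this nearness follows in part from how they were chosen.

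SREBP1 midpoints gathered around YY1 midpoints. Peak midpoints, counted in classes of 100 bp or more, cannot show whether binding sites had a fixed spacing. The median distance between midpoints of shared peaks was 214.5 bp (quartiles 105 and 354.5 bp), 24.0% lay within 100 bp and 10.1% beyond 485 bp. The SREBP1 midpoint was at the higher coordinate in 5550 cases and at the lower one in 5800, and the midpoints coincided in 9. Counted over all YY1 peaks, the density of SREBP1 midpoints was 350.1 per kb per 1000 YY1 peaks within 100 bp of the YY1 midpoint. It was 198.8 at 400 to 500 bp, 47.5 at 800 to 1000 bp and 12.6 at 3 to 5 kb. The density thus stayed nearly level over the first 200 bp on either side and fell from there.

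**Figure D2:**
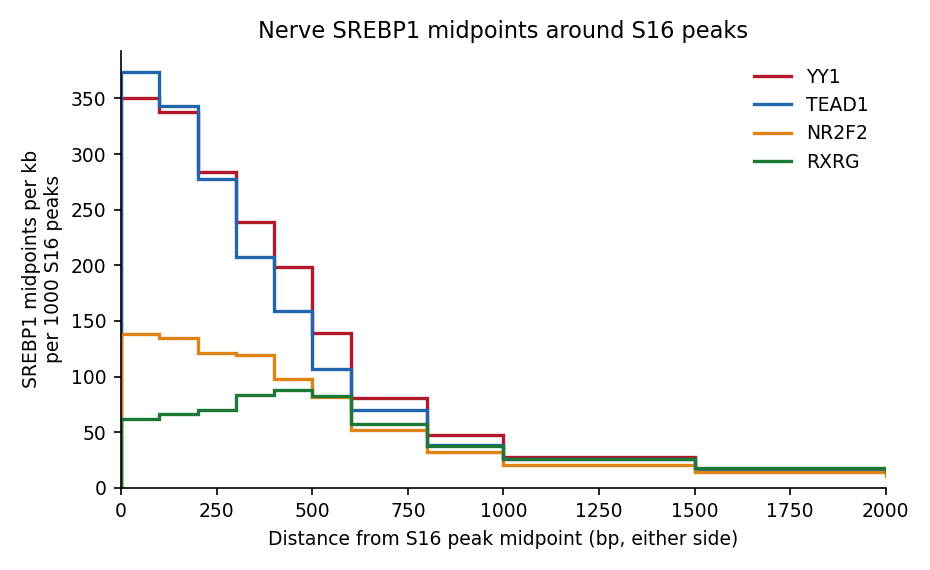
Nerve SREBP1 midpoints (y axis, per kb per 1000 S16 peaks) against the distance from the midpoints of YY1, TEAD1, NR2F2 and RXRG peaks (x axis, bp, both sides pooled). The YY1 and TEAD1 lines are highest within 100 bp, at 350.1 and 374.2, whereas the RXRG line is highest at 400 to 500 bp.

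Among the S16 lists this central gathering was shared with TEAD1 and differed most from RXRG. Around TEAD1 midpoints the density was 374.2 within 100 bp and 159.1 at 400 to 500 bp, and around NR2F2 it was 138.0 and 98.1. Around RXRG it was 62.3 within 100 bp and 87.5 at 400 to 500 bp, so that SREBP1 midpoints were fewer at the centre of RXRG peaks than beside it. RXRG peaks are narrow, with a median of 184 bp, so that this flank lies outside most of them.

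SREBP1, YY1 and TEAD1 peaks came together at many sites. At the 5882 SREBP1 peaks that met both, the median distance was 167.5 bp to the TEAD1 midpoint and 192.5 bp to the YY1 midpoint. The TEAD1 midpoint was the nearer one at 58.9% of these sites, and at 50.9% of the 171 in the highest decile of the SREBP1 name number, which is described further on. TEAD1 peaks there were narrower than YY1 peaks, with medians of 397 and 699 bp. Overlap limits how far apart midpoints can lie, and the limit is smaller for narrower peaks, so these distances do not show which factor lay closer. At TEAD1 peaks that met both other lists, TEAD1 and YY1 midpoints lay a median of 90 bp apart. The reverse combination, SREBP1 with TEAD1 and no YY1, was found at 666 peaks. Of these, 26.6% had a YY1 edge within 500 bp.

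The number that ends each SREBP1 peak name divided the list further. Names consist of the peak's chromosome and a number, and numbers start at 1 on each chromosome. No source used here says what this number means, and the deposited score is 1 in every peak. Numbers were ranked within each chromosome and divided into deciles. YY1 was met by 92.1% (91.1 to 93.0%) of SREBP1 peaks in the lowest decile, 75.1% in the next, 55.9% in the third and 40.8% in the fourth. The share went on falling at each step, to 11.8% (10.7 to 13.1%) in the highest decile, against 38.6% over the whole list. The difference between the ends was 80.3 points, or 48.2 points when only midpoints within 200 bp counted. The 3 lowest deciles held 57.9% of all shared SREBP1 peaks. Among the lower-numbered 50% of SREBP1 peaks, 59.3% met YY1.

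**Figure D3:**
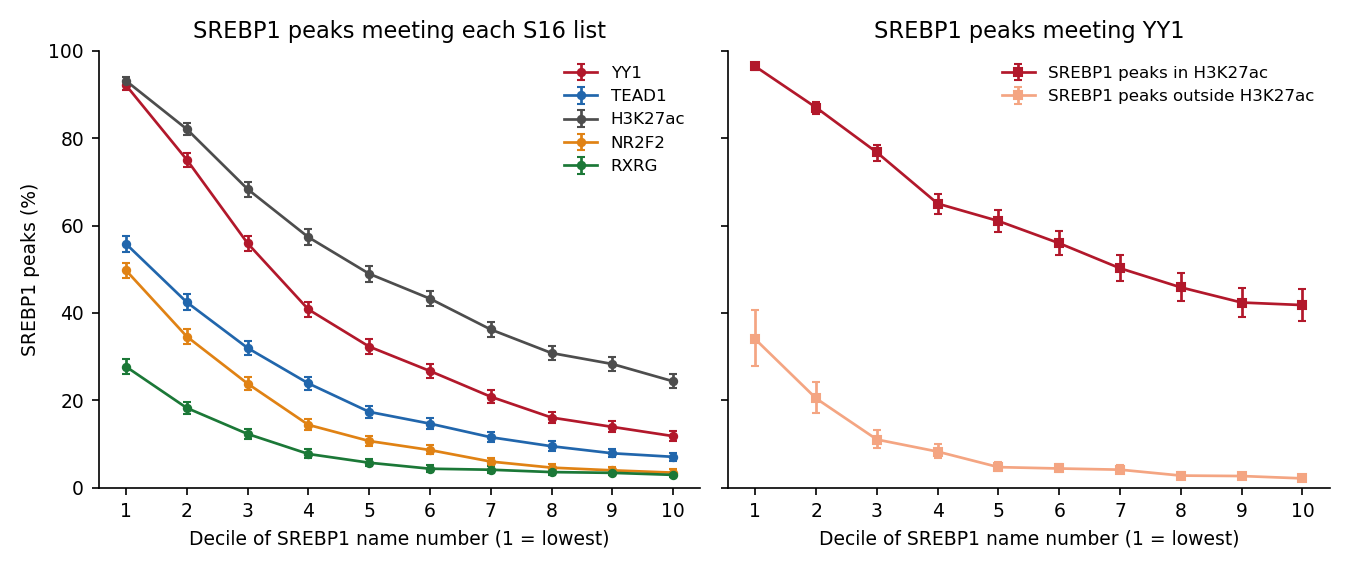
Left, share of SREBP1 peaks meeting each S16 list (y axis, %) by decile of the name number within chromosome (x axis). Right, share meeting YY1, for SREBP1 peaks in and outside H3K27ac. Points are shares and bars 95% Wilson intervals over peaks. All 5 lines on the left fall from decile 1 to decile 10, and YY1 goes from 92.1% to 11.8%.

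All 5 S16 lists fell with the number, to different extents. From the lowest to the highest decile the share in H3K27ac went from 93.1% to 24.4%, with TEAD1 from 55.8% to 7.09%, with NR2F2 from 49.7% to 3.48% and with RXRG from 27.7% to 2.97%. As ratios these are 3.82 for H3K27ac, 7.87 for TEAD1, 14.3 for NR2F2 and 9.34 for RXRG, against 7.79 for YY1. In the lowest decile YY1 was met almost as often as H3K27ac. In the highest the shares were 11.8% and 24.4%.

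The fall was present within acetylated chromatin and outside it. In H3K27ac, 96.4% (95.6 to 97.0%) of the lowest decile met YY1 and 41.8% (38.3 to 45.5%) of the highest. Outside it the shares were 34.0% (27.8 to 40.7%) of 203 peaks and 2.16% (1.64 to 2.86%) of 2218. Among SREBP1 peaks with both H3K27ac and TEAD1 the share was 99.6% in the lowest decile (1595 of 1601), 83.2% in decile 9 and 88.2% in the highest (149 of 169). Among those in H3K27ac without TEAD1 it fell from 91.9% to 27.5%. Acetylated peaks of different width gave the same picture: in the narrowest quartile (231 to 868 bp) 94.4% of the lowest decile and 23.3% of the highest met YY1, and in the widest quartile 95.9% and 49.5%.

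The acetylated share of shared peaks varied less with the number than that of all SREBP1 peaks. Shared peaks lie on YY1 peaks by definition, and 86.4% of all YY1 peaks lay in H3K27ac. The smaller variation thus follows in part from how shared peaks were chosen. Of shared SREBP1 peaks 97.5% lay in H3K27ac in the lowest decile and 86.2% in the highest, whereas of SREBP1-only peaks it was 42.5% and 16.1%. TEAD1 was met by 60.0% of shared peaks in the lowest decile and by between 42.3% and 52.7% in the other 9. NR2F2 was met by 53.5% of shared peaks in the lowest decile and 22.5% in the highest. The 233 SREBP1-only peaks of the lowest decile were nearer to YY1 than other SREBP1-only peaks. Their median distance was 3.44 kb, against 20.7 kb in the highest decile. No S16 list was met by 120 of 2951 peaks (4.07%) of the lowest decile and by 2128 of 2933 (72.6%) of the highest.

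Lowest-numbered shared peaks were also the best centred. The median distance between midpoints was 166.8 bp in the lowest decile and between 217 and 248 bp in the other 9, although YY1 peaks were widest in the lowest decile, at a median of 727 bp against 484 bp in the highest. Within YY1 peaks of 671 bp and more, the median distance was 184 bp for the lowest decile, 308.5 bp for deciles 2 to 5 and 351.5 bp for deciles 6 to 10. Within YY1 peaks of 439 to 671 bp it was 137.3, 219 and 236 bp. In the narrowest quartile of YY1 peaks (178 to 265 bp) it was 163, 155.5 and 163.8 bp, with no such order.

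The first number of each chromosome shows the pattern at single sites. Of these 21 peaks, 20 met YY1, 20 lay in H3K27ac, 16 met TEAD1, 10 met NR2F2 and 5 met RXRG. At chr1:187599253-187599737, a site chosen after its values were seen, all 5 S16 lists were met and the SREBP1 midpoint was 4 bp from that of a YY1 peak of 709 bp. The widest YY1 peaks at number 1 were chr20:6447921-6449082 (1162 bp), chr10:89252582-89253728 (1147 bp), chr11:89430137-89431175 (1039 bp), chr19:10339308-10340337 (1030 bp) and chr14:85614108-85615120 (1013 bp). The SREBP1 midpoint was 264.5, 185, 50, 46.5 and 66 bp from theirs, in this order, and the last of them lacked TEAD1. The exception was chr6:9385826-9386310, which met none of the 5 S16 lists and lay 5031 bp from the nearest YY1 edge. Up to number 10 on each chromosome, 204 of 207 peaks met YY1.

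Other low-numbered SREBP1 peaks without YY1 are named by the rule on low numbers. In H3K27ac the lowest number was 5, at chr15:18031564-18032048, which also met NR2F2 and was 362342 bp from the nearest YY1 edge. It was followed by number 9 at chr2:71371231-71371715, 678 bp from YY1. Number 12 of chromosome 2, at chr2:71376355-71376839, lay outside H3K27ac and 2694 bp from YY1. Number 14 at chr13:93854970-93855454, in H3K27ac, missed a YY1 peak by 100 bp. Also in H3K27ac were number 14 at chr3:14411197-14411681, 6264 bp from YY1, and number 17 at chr12:12313143-12313627, 141649 bp from YY1. The rest outside H3K27ac were number 11 at chr17:9221550-9222034, number 12 at chr19:63844239-63844723 and number 12 at chrX:106471834-106472318. They lay 2290, 1996 and 32075 bp from YY1, in this order.

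The numbers had gaps that grew with the number. Over all chromosomes 29435 of the 51070 numbers up to the highest were found in the list, or 57.6%. In the lowest decile of the range 92.6% of numbers were found, and in the highest 42.7%. On autosomes the share found lay between 54.5% on chromosome 16 and 62.5% on chromosome 12, and on the X chromosome it was 70.6%. The deciles above were formed from the peaks in the list and not from the full range of numbers.

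Wider YY1 peaks met SREBP1 more often. The median width was 637 bp (629 to 644 bp) for shared and 362 bp (358 to 366 bp) for YY1-only peaks, a difference of 275 bp. The share with SREBP1 went from 7.72% in the narrowest decile of YY1 peaks (178 to 205 bp) to 57.1% in the widest (906 to 3052 bp), against 29.5% over the whole list. A wider peak offers more bases for an overlap of 1 bp. With midpoints within 200 bp of each other, a rule that does not grow with width, the share went from 4.93% to 22.2% in the decile of 731 to 905 bp and was 19.1% in the widest. By that rule the difference in median width was 167 bp. Among YY1 peaks wider than the median, 44.3% met SREBP1.

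**Figure D4:**
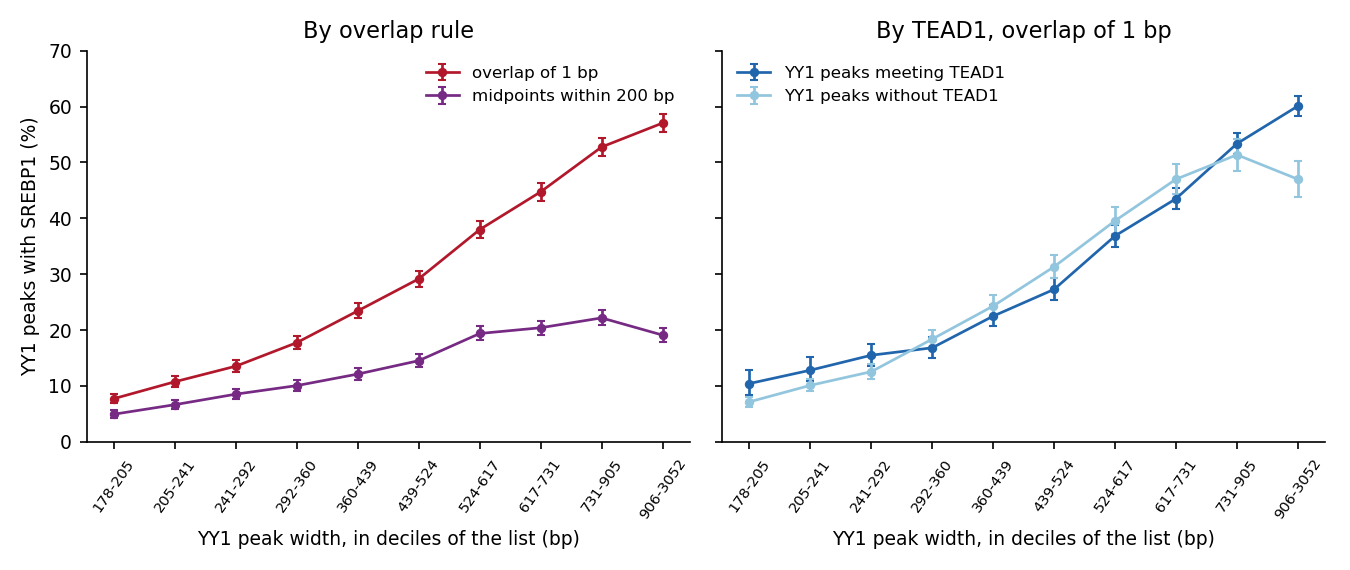
Share of YY1 peaks with SREBP1 (y axis, %) by decile of YY1 peak width (x axis, bp). Left, by overlap of 1 bp and by midpoints within 200 bp. Right, by overlap of 1 bp for YY1 peaks with and without TEAD1. Points are shares and bars 95% Wilson intervals over peaks. The 2 lines on the right run close together up to 905 bp and part in the widest decile, at 60.1% and 47.0%.

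At like YY1 width, peaks with and without TEAD1 met SREBP1 at close shares except in the widest class. Over all YY1 peaks SREBP1 was met by 36.0% of those with TEAD1 and 23.3% of those without. YY1 peaks with TEAD1 were wider, with medians of 716 against 522 bp among shared and 480 against 287 bp among YY1-only peaks. Within the 10 width classes the share was higher with TEAD1 in 5 and lower in 5, and the difference ran from -4.05 points (439 to 524 bp) to 13.1 points (906 to 3052 bp). Weighting each class by its number of YY1 peaks gave 29.9% with TEAD1 and 28.9% without. The interval of the difference lay above 0 in 4 classes and below 0 in 2.

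H3K27ac gave a difference in the same direction in every width class. The share of YY1 peaks with SREBP1 was higher in H3K27ac in all 10, by 2.73 points in the narrowest and by up to 24.8 points (731 to 905 bp). The interval held 0 only in the widest class, where 6 YY1 peaks lay outside H3K27ac. Weighted in the same way, 30.3% of YY1 peaks in H3K27ac and 16.9% of those outside met SREBP1, against 32.6% and 9.77% without weighting. Outside H3K27ac the classes from 617 bp upward held only 51, 32 and 6 YY1 peaks, so that the 16.9% rests heavily on few peaks.

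The widest YY1 peaks were divided between the classes. The widest with SREBP1 were chr16:45989520-45992072 (2553 bp), chr1:125925459-125927886 (2428 bp) and chr1:154720773-154723084 (2312 bp). The second of these meets SREBP1 peak number 4659, at chr1:125927878-125928362, only in its last bases, and the third meets number 14. The widest YY1 peak of all, chr14:46855364-46858415 (3052 bp), had no SREBP1 overlap but an SREBP1 edge 4 bp away. The next without SREBP1 were chr1:71604043-71606550 (2508 bp) and chr2:191795429-191797811 (2383 bp), at 18.6 and 16.1 kb from SREBP1. All of these lay in H3K27ac and met TEAD1. In the widest decile of YY1 peaks 99.8% lay in H3K27ac and 76.7% met TEAD1. These few peaks therefore do not show whether either mark separates the classes.

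Shares differed between chromosomes. Of SREBP1 peaks, 30.9% met YY1 on chromosome 18 and 48.7% on chromosome 12, with a median of 36.4% over the 20 autosomes and X. The intervals of neighbours in this order overlap, while those of the ends (28.0 to 33.8% and 45.3 to 52.1%) do not. The share of SREBP1 peaks in H3K27ac was also highest on chromosome 12, at 65.0%, and ran down to 43.8% on chromosome 14. Among SREBP1 peaks in H3K27ac the share with YY1 lay between 63.4% on chromosome 18 and 75.5% on X. Of YY1 peaks, 24.6% on chromosome 16 and 36.9% on chromosome 12 met SREBP1. In the lowest decile of the name number the share with YY1 ran from 82.5% on chromosome 18 to 97.4% on chromosome 10, and in the highest decile from 4.17% on chromosome 6 to 16.1% on chromosome 19.

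**Figure D5:**
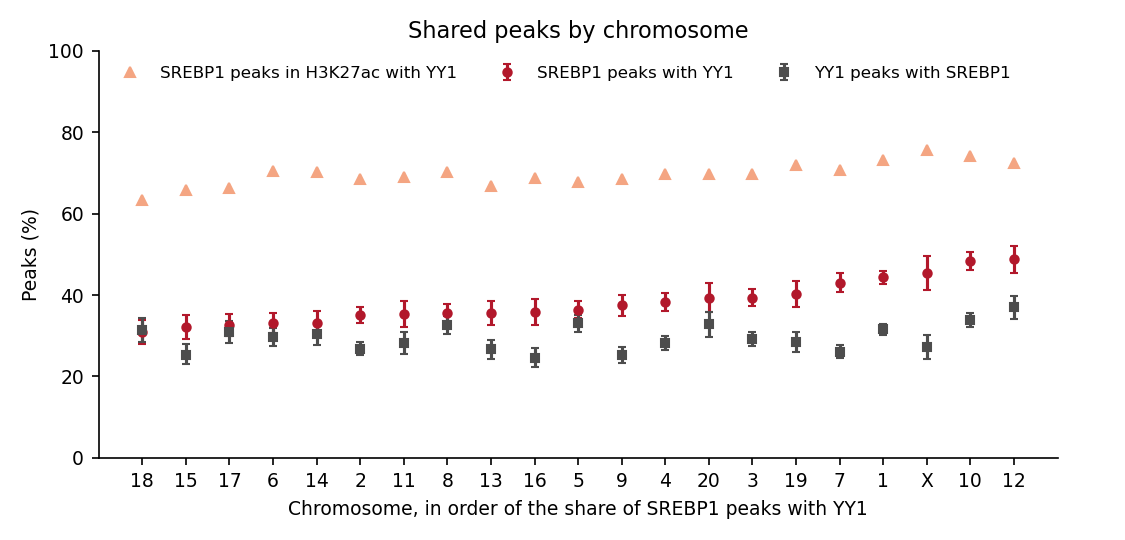
Share of peaks (y axis, %) on each chromosome (x axis, ordered by the share of SREBP1 peaks with YY1): SREBP1 peaks with YY1, YY1 peaks with SREBP1, and SREBP1 peaks in H3K27ac with YY1. Bars are 95% Wilson intervals over peaks, not drawn for the third set. The share of SREBP1 peaks with YY1 runs from 30.9% on chromosome 18 to 48.7% on chromosome 12.

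Shared sites were spread over most of the bins that held SREBP1. In bins of 1 Mb, 1990 of the 2422 bins with an SREBP1 peak held a shared one, with a median of 3, and 346 bins with 10 or more held 44.3% of all shared SREBP1 peaks. The bins with the most shared peaks were chromosome 7 from 11000001 to 12000000, where 36 of 53 SREBP1 peaks were shared among 90 YY1 peaks, chromosome 1 from 102000001 to 103000000 (35 of 51, 63 YY1 peaks) and chromosome 7 from 12000001 to 13000000 (33 of 46, 101 YY1 peaks).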

How the data were processed

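The deposited files are 6 BED lists of 7 samples. No list of the nerve input was analysed here. The start and end positions were deposited by the authors without counts. The SREBP1 list also has a score column, deposited as 1 in every peak, and a name. Build rn5 is listed in the submitters' processing notes, together with deepTools, bedtools, MACS2, Bowtie2 and bcl2fastq 2.20.0.422. Their roles, thresholds and any control library are not stated there.

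Mitochondrial peaks were dropped (9 YY1, 0 SREBP1). Overlaps of at least 1 bp, midpoint distances, edge distances and deciles of name number (ranked within chromosome) and of YY1 width were computed with Python 3.11.15, NumPy 2.4.6, pandas 2.3.3 and SciPy 1.17.1, with Matplotlib 3.10.9 for figures. The functions were tested on simulated data. No test was run, since each target has 1 library. Intervals of medians come from binomial order statistics. Members, classes and alternatives were chosen with earlier results of these data known. The named peaks are, by rule, from the lowest number of each chromosome, the lowest-numbered SREBP1-only peaks in and outside H3K27ac, the widest YY1 peaks with and without SREBP1, the YY1 peaks meeting the most SREBP1 peaks, and the 3 bins with the most shared peaks. The comparison of marks within classes of YY1 width, the offsets by width and number together, the sites of all 3 factors, the number deciles by H3K27ac width and the gaps in the numbers were added after the data were seen. Gene names and sequences were not used here, since no rn5 annotation or genome was at hand.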

Additional observations from a re-analysis of the deposited data

Results flagged for a closer look

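The YY1 list holds 9 peaks on the mitochondrial genome, which were singled out because they are left out of the comparisons. They are 222 to 974 bp wide and cover 4167 bp. The SREBP1 list holds 0 there, from another assay and tissue, TEAD1 9, NR2F2 13, RXRG 16 and H3K27ac 2. No control library for CUT&RUN was analysed here, and the difference was not tested.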

How the results depend on the processing

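The 6 results were recomputed under 36 alternatives. The 4 differences kept their sign, and the 2 shares cannot change theirs. In 11 the value stayed within the 95% interval of the one reported, in 25 it moved beyond it. Placed chromosomes only changed nothing, since neither list has other sequences. When 50% or more of the shorter peak had to be covered, 27.8% of SREBP1 peaks met YY1 and 21.1% of YY1 peaks met SREBP1, and the differences were 72.4 points between the number deciles, 60.6 points for H3K27ac and 49.6 points for TEAD1. With midpoints within 200 bp these were 18.1%, 13.8%, 48.2, 52.9 and 42.2 points, and the difference in median YY1 width was 167 bp. With YY1 extended by 500 bp they were 45.5%, 35.6%, 77.9 points (deciles), 42.2 points (TEAD1) and 247 bp. With only the YY1 peaks wider than the median, 29.2% of SREBP1 and 44.3% of these YY1 peaks were shared, with differences of 73.6 points (deciles) and 63.0 points (H3K27ac). With the lower-numbered 50% of SREBP1 peaks the shares were 59.3% and 22.7%, and the differences 60.9 points (H3K27ac) and 296 bp. The lowest against the highest quartile of numbers gave 65.6 points. No paired analysis was possible because each target has 1 sample. Read depth is unknown, and no peak score allowed a stricter threshold.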
